A study of Mus musculus with 12 samples.

Results

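The adrenals described here are those of the 6 control (Ctrl) mice of the series, out of 12 mice in all, and the 6 βCat-GOF mice were not used. All 6 were females aged 10 to 11 weeks on a mixed sv129-C57Bl/6 background. Their genotype is ASCre/+, which places Cre in 1 allele of *Cyp11b2* (AS, the gene of aldosterone synthase), so that Cre is made in cells of the zona glomerulosa (zG), although the sample titles call these mice wild type. RNA came from the whole gland after the surrounding fat had been trimmed off, so cortex, medulla, capsule, vessels and blood cells are averaged in every value. The study used these mice as controls for stabilised β-catenin, whereas here the question was what the adult female adrenal expresses and how far one control differs from the next. A gene was kept when it had 10 or more counts in each of the 6 libraries, which 13990 of the 39017 listed genes did. Of the other 25027, 15904 had no count in any of the 6 mice and 9123 had some.

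The adrenal cortex makes steroids from cholesterol in concentric zones. The outer zG makes aldosterone, the zona fasciculata (zF) makes corticosterone, and young females keep an inner layer, the X-zone, that is left over from fetal life and later regresses. The medulla at the centre consists of chromaffin cells, which derive from the neural crest, make adrenaline and noradrenaline from tyrosine and store them in granules with chromogranins. Cortex and medulla are enclosed by a capsule of mesenchymal cells and are rich in sinusoidal capillaries.

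Promoter letters are shown for the gene with the most counts and for the most abundant of the genes with a large spread. They are also shown for 5 chromaffin genes and 1 cholesterol gene, chosen for a match of letters given below. The RefSeq windows (GRCm38.p6, 250 bases before the start site) were searched on both strands for 3 sets of letters, AAGGTCA (a half-site of the steroidogenic factor NR5A1), TGACGTCA (the cAMP response element, CRE, which reads the same on both strands) and TCACNCCAC (a sterol response element). *Hsd3b1* (chr3:98859795-98860044, minus strand) and *Akr1c18* (chr13:4150647-4150896, minus strand) held none of the 3 in these windows, which are printed 5′ to 3′ in lower case because no letters matched.
Hsd3b1: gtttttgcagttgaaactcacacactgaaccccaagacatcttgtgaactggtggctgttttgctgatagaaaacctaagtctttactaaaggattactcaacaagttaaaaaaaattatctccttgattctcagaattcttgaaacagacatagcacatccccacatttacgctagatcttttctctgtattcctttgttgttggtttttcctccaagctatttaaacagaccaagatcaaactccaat
Akr1c18: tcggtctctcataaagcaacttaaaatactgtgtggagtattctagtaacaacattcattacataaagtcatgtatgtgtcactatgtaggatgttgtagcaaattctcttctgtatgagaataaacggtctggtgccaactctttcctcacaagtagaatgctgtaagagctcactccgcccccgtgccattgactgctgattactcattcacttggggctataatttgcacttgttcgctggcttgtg
The CRE letters stood in the windows of 5 of the 19 chromaffin genes that had a window (26.3%), against 1.77% of all 27025 genes with one. They were also in 2 of 14 immediate early, 1 of 14 clock and 1 of 13 proliferation genes with a window. Of the immune, endothelial and glial genes with one, 1 of 13, 1 of 7 and 1 of 2 held them. Each of the 5 chromaffin matches is shown within 30 bases, with the match in capitals. It begins 72 bases before the start site in *Chgb* (chr2:132781559-132781588, plus strand), 68 in *Scg2* (chr1:79440076-79440105, minus strand), 45 in *Th* (chr7:142900022-142900051, minus strand), 78 in *Pcsk1* (chr13:75089768-75089797, plus strand) and 112 in *Cartpt* (chr13:99900777-99900806, minus strand).
Chgb: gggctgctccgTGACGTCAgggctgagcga
Scg2: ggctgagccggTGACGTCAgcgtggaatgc
Th: cagaggggcttTGACGTCAgcctggccttt
Pcsk1: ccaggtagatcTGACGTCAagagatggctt
Cartpt: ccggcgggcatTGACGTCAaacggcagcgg
The sterol letters were found in 1 of 10 cholesterol genes with a window and in 1.22% of all genes. That gene is *Hmgcs1*, where the match begins 137 bases before the start (chr13:119690204-119690233, plus strand).
Hmgcs1: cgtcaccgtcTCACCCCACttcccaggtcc
The AAGGTCA letters were in the windows of 4.70% of all genes and of 0 of the 6 steroidogenic enzymes, 1 of 5 regulators (*Akr1b7*) and 2 of 10 cholesterol genes (*Dhcr7* and *Hmgcs1*) that had one. The sterol letters were also in 2 of the 5 regulators (*Nr0b1* and *Stard3*), and of the chromaffin genes *Ddc* held AAGGTCA and *Syt1* the sterol letters. No printed stretch of 30 bases held a match of a second set. The *Chgb*, *Scg2* and *Cartpt* stretches lie before the RefSeq start but within an exon of GENCODE M21, and the other 3 lie outside exons. A match is a run of letters, not a shown binding site.

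Counts on genes ranged from 14090378 (Ctrl 6) to 25625494 (Ctrl 3) per library, and 18857 to 19832 genes had at least 1 count. At these depths 3 counts correspond to 0.117 to 0.213 CPM (counts per 1000000 counts of the library). Kept genes took 99.8% of the counts in every mouse. The labels of Ctrl 1 and Ctrl 2 share a stem (1367-1-2 and 1367-1), as do those of Ctrl 3 and Ctrl 4 (1367-5-2 and 1367-5), and the labels do not say what the shared stem means. Each library was counted as 1 mouse, since the counts of both pairs differed by more than sampling noise, as described at the end. That shows separate libraries and does not show separate animals. In a whole gland, fewer cells of a type and less RNA per cell cannot be told apart, so a higher or lower level below refers to the share of the gland's RNA.

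The most abundant transcripts were those of steroid synthesis and of the mitochondrial genome. *Hsd3b1*, which makes the 3-ketosteroids, had the highest mean with 22226 ± 2928 CPM (SD, n = 6 mice), or 2.22% of all counts. *Cyp21a1* (21-hydroxylase) came next with 17281 ± 4484 CPM, then *mt-Co1* with 16307 ± 2993. *Star*, which moves cholesterol into mitochondria, had 14976 ± 1719 CPM, and *Cyp11b1*, the last step to corticosterone, had 13089 ± 1282. Of the 20 highest genes, 5 encode steroidogenic proteins and 6 are mitochondrial genes of the respiratory chain. The other 9 were *Adh1* (an alcohol dehydrogenase), *Eef1a1* (translation elongation), *Chgb* and *Chga* (granule proteins of chromaffin cells), *Sparc* (a matrix glycoprotein), *Akr1d1* and *Akr1cl* (aldo-keto reductases), *C3* (complement) and *Ctsb* (cathepsin B). The 10 highest genes took 12.1 to 13.2% of a library and the 20 highest 15.3 to 17.3%. It took 88 genes to reach 25% of the counts and 888 to reach 50%. Of the kept genes, 66 had a mean of 1000 CPM or more, 2128 had 100 or more, 10091 had 10 or more and 209 lay below 1, and the median was 27.4 CPM.

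**Figure D1:**
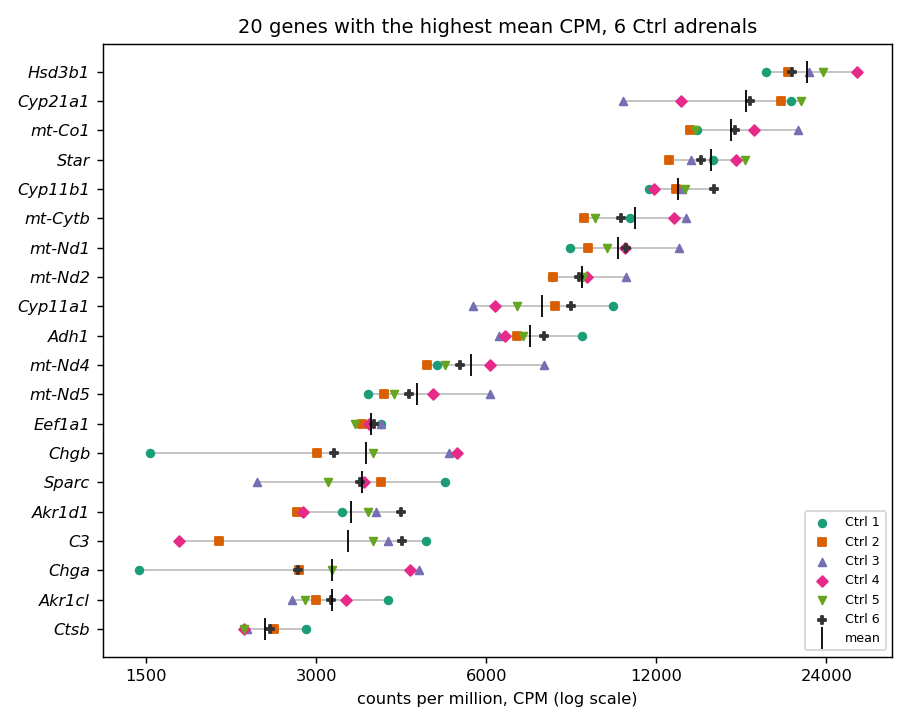
CPM (log scale) of the 20 genes with the highest mean, 1 symbol per Ctrl mouse and a black tick at the mean. The symbols of *Eef1a1* lie closest together (3515 to 3910.0 CPM), while *Chgb* and *Chga* are lowest in Ctrl 1 and *C3* is lowest in Ctrl 4.

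Long transcripts collect more counts, so the order was also taken per kilobase of exon, scaled to the same total as CPM over all genes with a length. On that scale *Hsd3b1* remained first with 37352 ± 4715 (SD, n = 6). It was followed by *mt-Nd1* (33408 ± 4485), *mt-Co1* (32786 ± 4995), *mt-Cytb* (29837 ± 4157) and *mt-Nd2* (26536 ± 2402), and each differed from the next by less than the larger of their SDs. These SDs are spreads between mice, and the order of the genes within each mouse was not compared. *Cyp21a1* (25346 ± 7144) and *Cyp11b1* (12907 ± 1360.0) followed, and *Star* (11355 ± 1316) was in place 9. *Cyp11a1* was in place 13, and *Akr1c18*, in place 29 by CPM, in place 14. The mitochondrial set is incomplete in this table, because 6 of the 13 protein genes of the mitochondrial genome (*mt-Co2*, *mt-Co3*, *mt-Atp6*, *mt-Atp8*, *mt-Nd3* and *mt-Nd4l*) had almost no counts in any mouse. Near-identical copies of at least 5 of these lie in other annotated genes, and the counting kept uniquely mapping reads. The part of such copies in these values was not tested.

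The 11 steroidogenic enzymes and their electron carriers together took 7.77% ± 0.565 (SD, n = 6) of the counts. By mouse their share was 7.96, 7.69, 6.79, 7.77, 8.53 and 7.89% in Ctrl 1 to Ctrl 6, so the highest (Ctrl 5) was 1.26 times the lowest (Ctrl 3). A 2-fold range, meaning a highest mouse of at least 2 times the lowest, was present in 5 of the 10 genes above the count minimum, against 19.8% of all kept genes (2771 of 13990). *Hsd3b1* (chr3:98852194-98859794, GRCm38) had 18805, 20528, 22328, 27161, 23664 and 20871 CPM in Ctrl 1 to Ctrl 6, highest in Ctrl 4. *Star* ranged from 12645 CPM in Ctrl 2 to 17199 in Ctrl 5, with a median of 14775. *Cyp11b1* had the smallest spread of the enzymes, with 11664, 12992, 13329.8, 11874, 13467 and 15210.5 CPM and a coefficient of variation (CV, the SD over the mean after TMM scaling of the libraries) of 9.17%.

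*Cyp21a1* and *Cyp11a1* varied more than these. *Cyp21a1* had 20756, 19951, 10474, 13294, 21639.5 and 17569 CPM, with Ctrl 3 and Ctrl 4 below the other 4 mice, and its CV was 26.3%. Its pseudogene *Cyp21a2-ps* matches 67.2% of the transcript at up to 98.0% identity, so reads could be split between them and the level is uncertain. *Cyp11a1*, which cleaves the side chain of cholesterol as the first step, had 10080.5, 7932, 5689, 6229, 6789.7 and 8477 CPM, highest in Ctrl 1 and lowest in Ctrl 3. *Fdxr* and *Fdx1*, which pass electrons to the mitochondrial P450 enzymes, ranged from 866 CPM in Ctrl 3 to 1793 in Ctrl 2, with a median of 1312, and from 456 CPM in Ctrl 2 to 736 in Ctrl 4, with a median of 581, respectively. *Por*, the donor for the microsomal enzymes, ranged from 201 CPM in Ctrl 4 to 413 in Ctrl 1, with a median of 302. *Cyp17a1* (17α-hydroxylase), which the adult mouse adrenal is known to lack, had at most 0.268 CPM in any mouse and failed the count minimum.

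**Figure D2:**
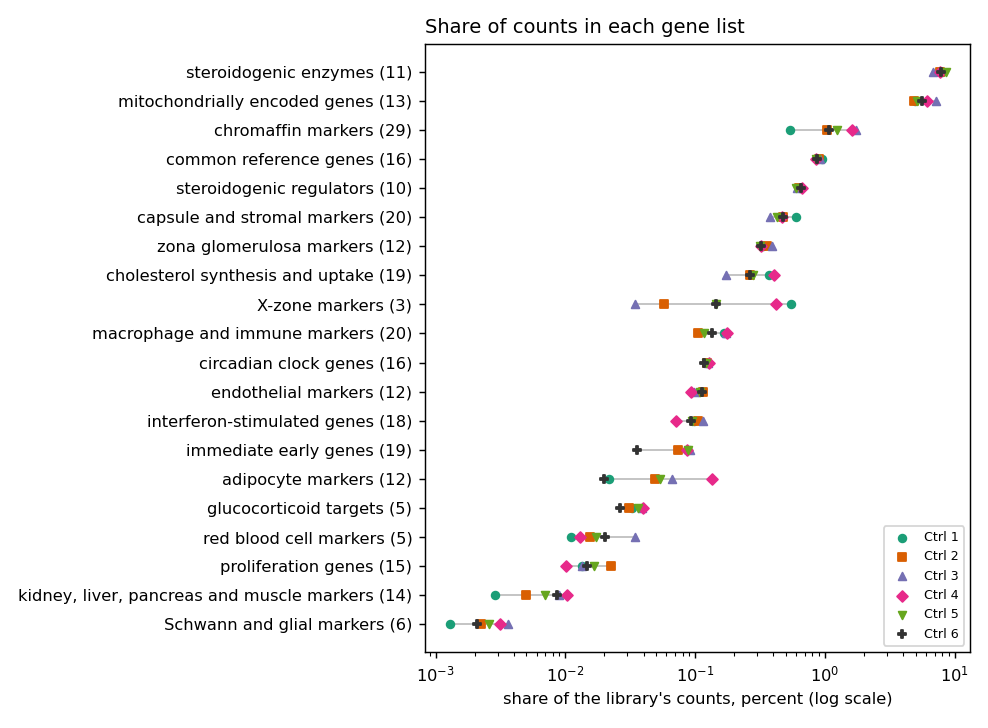
Share of each library's counts (percent, log scale) in 20 gene lists, with the number of genes in brackets and 1 symbol per Ctrl mouse. Steroidogenic enzymes stay between 6.79 and 8.53%, whereas the X-zone markers spread from 0.0342 to 0.545% and the adipocyte markers from 0.0200 to 0.135%.

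Regulators of steroidogenesis had a median CV between mice of 14.5%, against 23.9% for the enzymes. The CV between mice is the CV after the part due to counting has been taken out. Their 10 genes took 0.633% ± 0.0272 (SD, n = 6) of the counts, and 1 of the 10 had a 2-fold range (19.8% of all kept genes did). *Scarb1*, the receptor for HDL cholesterol, had 1552, 1568, 1442, 1673, 1575 and 1577 CPM and a CV of 5.18%. *Mc2r*, the ACTH receptor, had 405, 508, 488, 509.7, 521 and 512 CPM, lowest in Ctrl 1 with the other 5 mice close together. *Nr5a1*, the transcription factor SF-1 that defines the steroidogenic lineage, ranged from 574 CPM in Ctrl 3 to 935 in Ctrl 1, with a median of 757. *Akr1b7* (which clears the aldehyde released by side-chain cleavage), *Soat1* (cholesterol esterification), *Tspo*, *Mrap* (the accessory protein of the ACTH receptor), *Lipe* (release of stored cholesterol) and *Stard3* had CVs of 16.5%, 12.5%, 10.3%, 17.8%, 20.6% and 7.05%. The gene with the 2-fold range was *Nr0b1* (DAX-1, a repressor of SF-1), with 24.3, 17.6, 41.2, 24.7, 32.5 and 30.2 CPM.

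Genes of cholesterol synthesis and uptake varied more, and mostly in 1 direction. Their 19 genes took 0.374, 0.263, 0.173, 0.408, 0.278 and 0.263% of the counts in Ctrl 1 to Ctrl 6. Of the 18 above the minimum, 13 had a 2-fold range (19.8% of all kept genes did), 14 had Ctrl 1 and Ctrl 4 as the 2 highest mice (5.26% of all kept genes did), and 15 were lowest in Ctrl 3 (20.4% of all kept genes were). *Fdps* (farnesyl diphosphate synthase) had the largest spread of them with 579, 128, 68.5, 411, 198 and 196 CPM, so that Ctrl 1 and Ctrl 4 lay above the other 4 mice with a step of 2.09-fold. *Hmgcs1*, whose sterol letters are shown above, had 390.1, 235, 161, 444, 295 and 271 CPM. *Sqle* (squalene epoxidase) had 99.9, 33.8, 23.3, 97.6, 49.3 and 53.7 CPM. *Stard4*, a cytosolic cholesterol carrier, was instead set apart by Ctrl 3 alone, with 156, 100.3, 38.6, 186, 118 and 105 CPM. *Npc2*, a lysosomal carrier, was flatter (179 to 233 CPM), and *Npc1*, with 73.4, 141, 75.04, 144, 136 and 77.7 CPM, was highest in Ctrl 2, Ctrl 4 and Ctrl 5. *Hmgcs1* and *Lss* (lanosterol synthase) kept the closest ratio to the rest of the list, with CVs of 4.37% and 4.25% after division by the mean of the other members. *Npc1* and *Lss* were named after their values were seen.

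The zG markers summed to a similar share in every mouse, but most of the sum came from *Kcnk3* and *Dab2*, and single genes differed. The 12 genes took 0.318% in Ctrl 5 to 0.389% in Ctrl 3, with a median of 0.329%. Of the mean of 0.341%, *Kcnk3* held 0.163% and *Dab2* 0.0687%, so the sum says little about the other genes. The share without *Kcnk3* and *Dab2* was not computed. *Kcnk3*, the TASK-1 potassium channel that sets the membrane potential, was the highest of them by CPM and had 1599.7, 1772, 1656, 1738, 1488 and 1526 CPM (CV 6.76%). *Dab2*, an endocytic adaptor, ranged from 543 CPM in Ctrl 4 to 809.8 in Ctrl 2, with a median of 677. *Cyp11b2*, which carries Cre in 1 allele in these mice, had 355, 155, 412, 256, 223 and 170.0 CPM, and Ctrl 1 and Ctrl 3 were above the other 4. *Cyp11b1* counts were 32.4 to 89.4 (median 53.3) times those of *Cyp11b2*. *Wnt4*, the zG signal upstream of β-catenin, had 282, 333, 419.8, 157, 232 and 279.6 CPM, lowest in Ctrl 4. *Agtr1a*, the main receptor for angiotensin II, was higher in Ctrl 3 (229 CPM) than in the others, which lay between 151 and 169. *Cacna1h*, a T-type calcium channel, was highest in Ctrl 2 (217 CPM), the mouse with the lowest *Cyp11b2* and the lowest *Hsd3b6*. *Hsd3b6*, the 3β-HSD isoform of the mouse zG, had 72.9, 38.1, 83.1, 127, 97.5 and 110.0 CPM. The median CV between mice of the 12 genes was 29.5%.

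No list differed between the 6 glands as much as the X-zone markers. Together they took 0.545, 0.0579, 0.0342, 0.420, 0.145 and 0.145% of the counts in Ctrl 1 to Ctrl 6, and the highest share was 15.9 times the lowest. *Akr1c18* (20α-hydroxysteroid dehydrogenase, chr13:4132615-4150654), the standard X-zone marker, had 4555, 389, 241, 3433, 1215 and 1123 CPM. Ctrl 1 and Ctrl 4 were high, Ctrl 5 and Ctrl 6 intermediate, and Ctrl 2 and Ctrl 3 low. *Pik3c2g*, a lipid kinase of the X-zone, had 722, 23.4, 15.5, 612, 62.7 and 153 CPM, with the same 2 mice on top and a step of 4.02-fold to the next. The CV between mice was 97.8% for *Akr1c18* and 121% for *Pik3c2g*, against a median of 11.7% over all kept genes. The third gene, the thyroid hormone receptor *Thrb*, did not share this order. It had 168, 166, 85.7, 150.4, 176 and 175 CPM and was set apart only by Ctrl 3. *Akr1c18* counts were 5.61 to 19.4 (median 11.4) times those of *Pik3c2g*, so the pair did not keep 1 ratio.

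Further genes set Ctrl 1 and Ctrl 4 above the other mice, as *Pik3c2g* did. A gap was called where neighbouring mice, ordered by level, were at least 2-fold apart, and the largest such gap then divided the mice into a high and a low set. Such a gap was present in 447 of 13990 genes (3.2%), and in 31 of them Ctrl 1 and Ctrl 4 formed the high set. *Akr1c18* was not among the 31, since its largest gap (2.93-fold) set Ctrl 2 and Ctrl 3 low. In 22 of the 31 the lowest mouse was Ctrl 3 and in 6 it was Ctrl 2. Of all kept genes 20.4% were lowest in Ctrl 3 and 16.6% in Ctrl 2. A further 27% were lowest in Ctrl 1 and 16.1% in Ctrl 4, which the choice of the 31 does not allow, so these shares are not a like baseline. Besides *Pik3c2g* and *Fdps* the 31 included *Plin4* (a coat protein of lipid droplets), with 71.3, 10.6, 13.1, 146, 28.3 and 14.2 CPM, and *Mmp12* (a macrophage elastase), with 66.4, 15.2, 14.7, 73.1, 15.1 and 14.5 CPM. *Cfap54*, a gene of cilia, had 37.7, 2.73, 3.00, 33.7, 2.68 and 3.69 CPM and the widest step of the 31 (9.17-fold). *Acpp*, *Padi2*, *Ssu2*, *Csf2rb* and *Timp4* also belonged to this set and to the 15 genes with the largest spread. *Fetub* (19.9 to 195 CPM), *Emb* (19.1 to 111 CPM) and *Spp1* (14.2 to 71.3 CPM) were named after their values were seen.

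**Figure D3:**
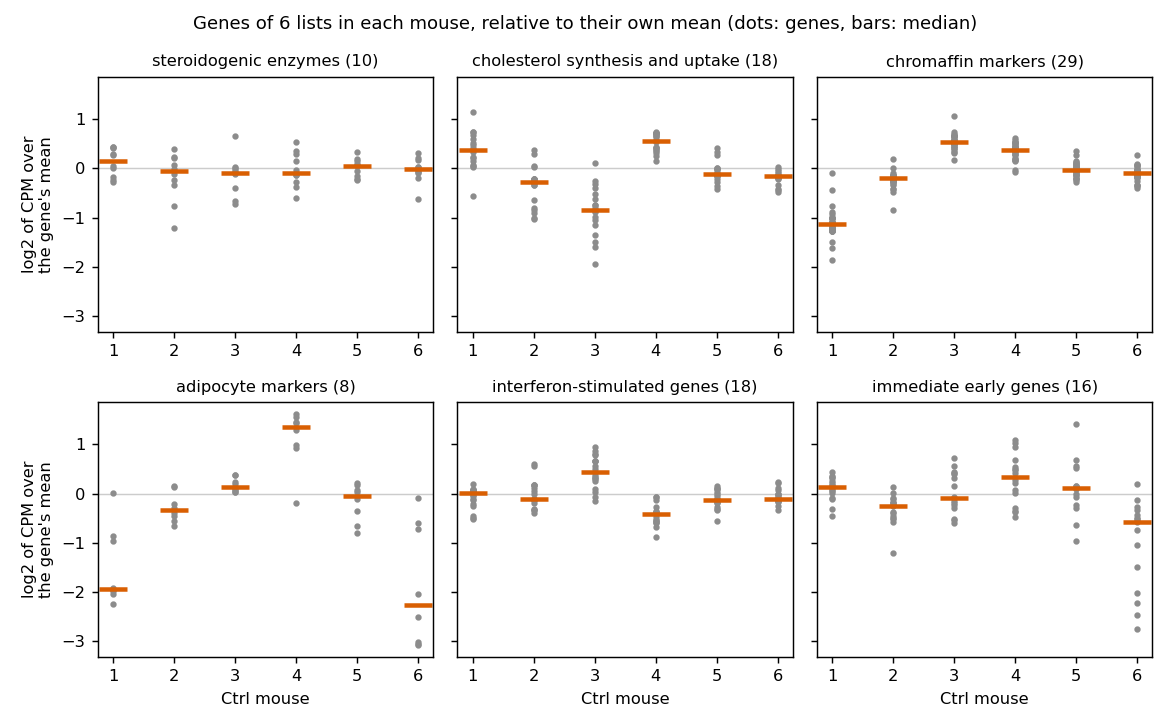
Log2 of each gene's CPM over its own mean of 6 mice, for the genes above the count minimum in 6 lists. Grey dots are genes and orange bars are medians over the genes. Chromaffin markers are lowest in Ctrl 1 and cholesterol genes in Ctrl 3, adipocyte markers are highest in Ctrl 4, and immediate early genes are lowest in Ctrl 6.

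Chromaffin markers took 1.21% ± 0.434 (SD, n = 6) of the counts. Their share was 0.542, 1.04, 1.73, 1.63, 1.24 and 1.08% in Ctrl 1 to Ctrl 6, lowest in Ctrl 1 and highest in Ctrl 3 and Ctrl 4, and the highest was 3.20 times the lowest. All 29 genes were above the minimum. Of these 28 had a 2-fold range (19.8% of all kept genes did) and 28 were lowest in Ctrl 1 (27% of all kept genes were). The share of the steroidogenic enzymes in Ctrl 1 (7.96%) was close to the mean of the 6 mice.

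The enzymes of catecholamine synthesis shared the lowest and the highest mouse. *Th* (tyrosine hydroxylase) had 293, 491, 849.9, 764, 623 and 531 CPM. *Ddc*, which makes dopamine and was named after its values were seen, had 44.3, 73.3, 126, 106, 73.5 and 81.8 CPM. *Dbh*, which makes noradrenaline, had 291, 483, 682, 646, 576 and 556 CPM, and *Pnmt*, which converts it to adrenaline, had 237, 449, 859, 608, 639 and 405 CPM. In all 4 genes Ctrl 1 was lowest and Ctrl 3 highest, while the order of the mice between them differed. The granule proteins were the most abundant of the list, with 1526, 3008, 5156, 5324, 3778 and 3230.2 CPM for *Chgb* (chromogranin B) and 1455, 2797, 4565, 4405, 3199 and 2781 CPM for *Chga* (chromogranin A). *Scg2* (secretogranin II) ranged from 967 CPM in Ctrl 1 to 3325 in Ctrl 3, with a median of 2149, and *Cyb561*, which supplies electrons inside the granule, from 189.6 CPM in Ctrl 1 to 458 in Ctrl 3, with a median of 317. The peptide *Npy* ranged from 70.0 CPM in Ctrl 1 to 207 in Ctrl 3, with a median of 154. Per kilobase of exon *Chgb* had a mean of 4158 ± 1537 and *Chga* of 3606 ± 1233. The mean of *Pnmt* (1434 ± 555) lay above that of *Th* (778 ± 247). These SDs are spreads between mice and do not measure the difference between genes of the same libraries. *Chgb* had more counts than *Chga* in each of the 6 mice, at exon lengths of 2740 and 2756 bases.

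Relative to each other, most chromaffin genes varied less than they did between mice. The median CV of the 29 genes was 35.8%, and 10.6% once each gene was divided by the mean of the other 28, with a smaller CV for 27 of them. The median CV of all kept genes, without such a division, was 13.4%. After division *Cartpt*, *Pcsk1* and *Slc6a2* still had CVs of 29.1%, 21.7% and 20.4%. *Th* counts were 0.174 to 0.202 (median 0.188) times those of *Chga*, and *Pnmt* counts were 0.762 to 1.03 (median 0.862) times those of *Th*. The exceptions with a larger CV after division were *Penk* (proenkephalin, 44.8%) and *Pcsk2* (a prohormone convertase, 29.2%), both named after their values were seen. *Penk* had 18.8, 11.2, 22.5, 27.6, 19.4 and 21.4 CPM, lowest in Ctrl 2. The largest spread in the list was that of *Cartpt* (a neuropeptide, 56.1% between mice), followed by the transcription factor *Phox2a* (42.0%), the vesicle transporter *Slc18a2* (41.6%), the convertase *Pcsk1* (40.6%) and the receptor *Ret* (40.2%). *Pcsk1* had 15.4, 55.8, 80.9, 73.4, 60.5 and 49.5 CPM and *Syt1* (synaptotagmin, the calcium sensor of exocytosis) had 16.8, 47.0, 75.4, 69.7, 52.6 and 49.8 CPM. In both Ctrl 1 lay more than 2-fold below every other mouse.

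A low Ctrl 1 was also the most frequent pattern in the whole table. Of the 447 genes with a 2-fold gap, 194 had Ctrl 1 alone in the low set, and 183 of these were highest in Ctrl 3 or Ctrl 4. Of all kept genes 24.5% were highest in Ctrl 3 and 15% in Ctrl 4. Another 13.4% were highest in Ctrl 1, which the choice of the 194 does not allow. The 194 genes made up 1.39% of all kept genes and included 2 of the 29 chromaffin genes (*Pcsk1* and *Syt1*). The next 5 genes with this pattern were named after their values were seen and do not stand for the others. *Rab3c* had 40.7, 112, 163, 148, 115 and 97.7 CPM, *Ptprn2* (a granule membrane protein) had 29.7, 67.4, 105, 94.5, 72.5 and 65.7 CPM, and *Syt7* had 19.6, 41.3, 63.0, 53.4, 47.9 and 44.5 CPM. *Cadps*, a priming factor of granules, ranged from 9.01 CPM in Ctrl 1 to 36.3 in Ctrl 4, with a median of 27.8, and *Unc80*, a subunit of a sodium leak channel, from 11.6 CPM in Ctrl 1 to 49.7 in Ctrl 4, with a median of 42.0. *Erbb3*, from the Schwann and glial list, had 3.36, 9.95, 15.02, 15.5, 11.2 and 7.88 CPM.

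**Figure D4:**
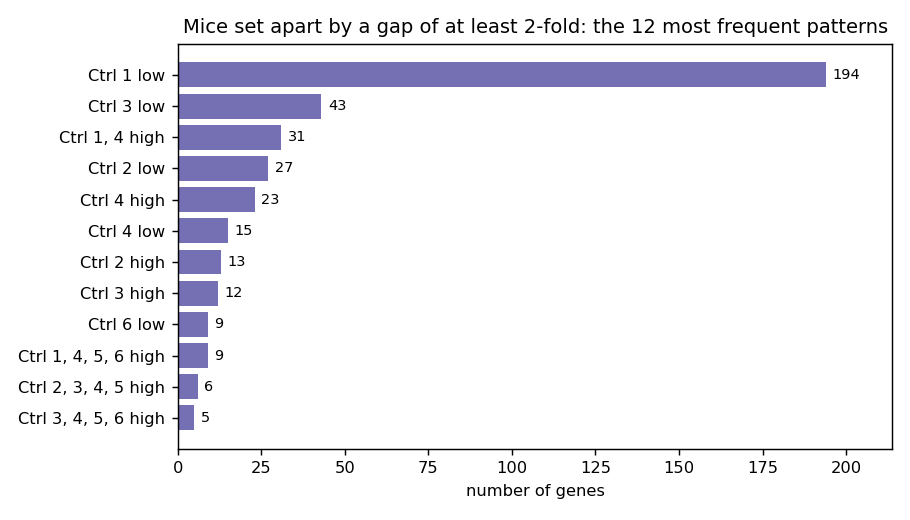
Number of genes in which a gap of at least 2-fold sets mice apart, for the 12 most frequent patterns. A low Ctrl 1 accounts for 194 of the 447 genes, a low Ctrl 3 for 43, and a high pair of Ctrl 1 and Ctrl 4 for 31.

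The Schwann and glial markers were near the lower limit of the data, with 0.00128 to 0.00362% of the counts in 6 genes. The lowest share was in Ctrl 1. *Erbb3* averaged 10.5 ± 4.57 CPM, *S100b* and *Sox10* had 0.874 to 3.28 CPM and 0.822 to 2.42 CPM, and *Foxd3* failed the minimum.

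The capsule and stromal markers took 0.469% ± 0.0736 (SD, n = 6) of the counts, but 1 gene made up most of that. *Sparc* had 5081, 3912, 2355, 3638, 3145 and 3589 CPM. Without it the other 19 genes took 0.0889, 0.0848, 0.140, 0.102, 0.112 and 0.117%, highest in Ctrl 3, which was the lowest mouse of the full list. *Dcn* (decorin) had 261, 211, 528, 381, 307 and 377 CPM and *Postn* (periostin) had 86.1, 109.6, 201, 118, 167 and 159 CPM, and both were highest in Ctrl 3. *Col1a2*, *Col3a1* and *Pdgfrb*, genes of fibroblasts and pericytes, were flatter, with CVs of 12.6%, 9.89% and 12.5%. *Tagln*, of smooth muscle, ranged from 54.2 CPM in Ctrl 2 to 85.0 in Ctrl 3, with a median of 79.3, and 67.9% of its exons are shared with overlapping genes. *Nr2f2*, of capsule and stroma, ranged from 51.8 CPM in Ctrl 4 to 73.5 in Ctrl 6, with a median of 62.3. Of the 20 genes 9 had a 2-fold range (19.8% of all kept genes did). *Col6a1*, a collagen outside the list that was named after its values were seen, had 1042, 978, 293, 605, 641 and 632 CPM and was set apart by a low Ctrl 3, as was the long noncoding RNA *Neat1*, chosen likewise, with 1054, 951, 189, 562, 1035 and 584 CPM. In all 43 genes followed that pattern.

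Endothelial genes spread about as much as the median gene. Their 12 genes took 0.0936% in Ctrl 4 to 0.116% in Ctrl 2, with a median of 0.109%, 0 of the 12 had a 2-fold range (19.8% of all kept genes did), and their median CV between mice was 11.4%. *Kdr* (VEGF receptor 2) had 166, 201, 142, 134, 191 and 185 CPM, *Plvap*, of fenestrated capillaries, had 179, 176, 143, 125, 155 and 159.8 CPM, and *Emcn* had 136, 134, 132, 121, 121 and 142 CPM. *Tek*, *Eng*, *Pecam1*, *Flt1* and *Tie1* had CVs of 11.8%, 5.52%, 5.90%, 10.3% and 11.5%.

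Macrophage markers were present, while several lymphocyte markers failed the count minimum. Of 20 immune genes 17 passed it, and *Ms4a1*, *Cd79a* and *Cd3e*, which mark B and T cells, did not. *Lyz2* (lysozyme) had 465, 218, 223, 450.5, 262 and 217 CPM, high in Ctrl 1 and Ctrl 4, and *Lyz1* matches 96.0% of its transcript, so its reads may be split. The MHC class II genes took another order. *Cd74*, the invariant chain, had 254, 195, 397, 311, 199 and 268 CPM, and *H2-Aa* had 189, 138, 298, 229, 148 and 199 CPM, both highest in Ctrl 3. *H2-Eb1* and *H2-Ab1* ranged from 104 to 192 CPM and 70.8 to 139 CPM. The complement genes *C1qa*, *C1qb* and *C1qc* of tissue macrophages ranged from 51.9 to 91.2 CPM, 57.8 to 109 CPM and 53.3 to 89.1 CPM, and all 3 were lowest in Ctrl 2.

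Interferon-stimulated genes took 0.0979, 0.105, 0.115, 0.0713, 0.0949 and 0.0922% of the counts. Of the 18 genes, all above the minimum, 14 were highest in Ctrl 3 (24.5% of all kept genes were) and 14 were lowest in Ctrl 4 (16.1% were). *Ifit3* had 36.6, 31.6, 77.0, 26.8, 31.9 and 36.7 CPM and *Ifit1* had 36.2, 38.6, 72.7, 32.1, 37.7 and 35.6 CPM, with Ctrl 3 about 2 times the next mouse. *Isg15*, a ubiquitin-like modifier, had 12.4, 10.6, 24.4, 8.30, 12.1 and 12.2 CPM. Haemoglobin and *Alas2* (haem synthesis in red cells) were also highest in Ctrl 3 in 5 of 5 genes. *Hbb-bs* had 64.0, 88.2, 206, 71.8, 94.4 and 120.1 CPM and *Hba-a1* had 20.4, 27.6, 56.7, 27.4, 31.4 and 33.4 CPM. The haemoglobin genes have near-identical copies (*Hba-a1* and *Hba-a2*, *Hbb-bs* and *Hbb-bt*), so the level of each is uncertain. Mitochondrial genes were highest in the same mouse. They took 4.98, 4.84, 7.25, 6.13, 5.14 and 5.62% of the counts, and 6 of the 7 above the minimum were highest in Ctrl 3. The part of blood and of mitochondrial RNA in other values of Ctrl 3 was not tested.

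Adipocyte genes separated the mice although the glands had been trimmed of fat. The 12 genes took 0.0215, 0.0492, 0.0662, 0.135, 0.0532 and 0.0200% of the counts, and the highest share (Ctrl 4) was 6.75 times the lowest (Ctrl 6). Of the 8 that passed the minimum 7 were highest in Ctrl 4 (15% of all kept genes were). *Adipoq* (adiponectin) had 8.23, 27.7, 44.1, 98.7, 19.5 and 4.19 CPM, *Cfd* (adipsin) had 43.4, 104, 167, 444, 184 and 39.6 CPM, and *Car3* (carbonic anhydrase 3) had 40.9, 175, 205, 386, 123 and 18.9 CPM. *Cidec*, *Retn* (resistin) and *Fabp4* ranged from 2.27 to 59.1 CPM, 2.13 to 32.8 CPM and 69.7 to 268 CPM. *Plin1*, a lipid droplet protein, did not follow this order. It had 42.3, 45.8, 43.0, 36.9, 43.9 and 39.4 CPM. *Lep*, *Ucp1*, *Cidea* and *Adrb3* failed the minimum in at least 1 mouse, and *Ucp1*, the marker of brown fat, had at most 0.624 CPM. The part of fat in other genes that were high in Ctrl 4 was not tested.

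Genes of neighbouring organs were almost absent. Of 14 markers of kidney, liver, pancreas and muscle 13 failed the minimum, and none of these 13 exceeded 0.554 CPM in any mouse. The defining genes *Umod* (kidney), *Alb* (liver), *Prss2* (pancreas) and *Myh4* (muscle) had at most 0.107 CPM. The gene that passed was *Cela1*, an elastase, with 27.6, 49.3, 89.4, 102, 68.5 and 85.3 CPM.

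Genes that answer to stimulation within minutes were low in 1 mouse. The 19 immediate early genes took 0.0866, 0.0734, 0.0913, 0.0864, 0.0879 and 0.0356% of the counts, and 11 of the 16 above the minimum were lowest in Ctrl 6 (9.39% of all kept genes were). *Nr4a1* (NUR77, induced by ACTH in the cortex) had 384, 302, 443, 304, 329 and 44.5 CPM, so Ctrl 6 lay 6.69-fold below the next mouse. *Egr1* had 42.5, 43.2, 39.3, 94.0, 49.2 and 8.30 CPM and *Fos* had 5.98, 4.98, 4.14, 12.7, 6.60 and 1.28 CPM, and both were highest in Ctrl 4. *Jun* had 192, 189, 119, 141, 247 and 142 CPM and *Junb* had 40.7, 33.4, 42.1, 72.5, 19.4 and 18.2 CPM. *Nr4a3* had 51.5, 42.2, 90.5, 42.1, 59.2 and 43.7 CPM, so it did not set Ctrl 6 apart. Clock genes were flatter as a sum. Their 16 genes took 0.117% in Ctrl 6 to 0.128% in Ctrl 4, with a median of 0.124%. Single clock genes varied more than that sum. Of the 15 above the minimum 5 had a 2-fold range (19.8% of all kept genes did). Their median CV between mice was 17.8%, against 11.7% over all kept genes. *Tef*, *Dbp* and *Nr1d1* (REV-ERBα) had CVs of 6.20%, 18.1% and 23.4%. *Per2* was highest in Ctrl 5 with 59.1, 66.5, 55.3, 58.4, 118 and 46.5 CPM, and *Per1*, which also answers to glucocorticoids and cAMP, was lowest in Ctrl 6 with 63.0, 64.6, 81.2, 52.9, 81.5 and 26.8 CPM. The hour of death is not given in the sources used here. Of the glucocorticoid targets *Sgk1* was flat (92.9 to 104 CPM) while *Fkbp5* had 52.5, 66.2, 100.02, 96.8, 81.3 and 65.2 CPM and *Tsc22d3* (GILZ) had 91.3, 65.3, 105, 137, 86.0 and 63.7 CPM.

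Proliferation genes were expressed at low levels. Of 15 genes 8 were highest in Ctrl 2 (23.1% of all kept genes were) and 10 were lowest in Ctrl 4 (16.1% were). *Mki67* had 7.77, 17.3, 10.3, 8.30, 13.5 and 12.6 CPM and *Top2a* had 9.56, 18.2, 11.2, 8.84, 15.5 and 14.4 CPM. *Mcm6*, of the replicative helicase, was set apart by Ctrl 2 with 27.7, 65.0, 26.0, 21.2, 23.96 and 31.7 CPM, while *Mcm2* had 41.2, 60.3, 41.3, 28.5, 52.1 and 36.6 CPM.

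Over all 13990 genes the median CV was 13.4%, the counting part was 4.27% at the median, and the CV between mice was 11.7% (quartiles 7.32 and 19.7%). It exceeded 20% in 3425 genes, 50% in 248 and 100% in 21, and in 602 genes (4.30%) the CV did not exceed counting noise. The lowest spread between mice was found in the middle of the range of levels. Genes of 10 to 100 CPM had a median of 10.4% and those of 100 to 1000 CPM 9.87%, while the 66 genes of 1000 CPM or more, many of them among the steroidogenic, mitochondrial and chromaffin genes above, had 15.1%. Their counting noise was 0.573%.

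**Figure D5:**
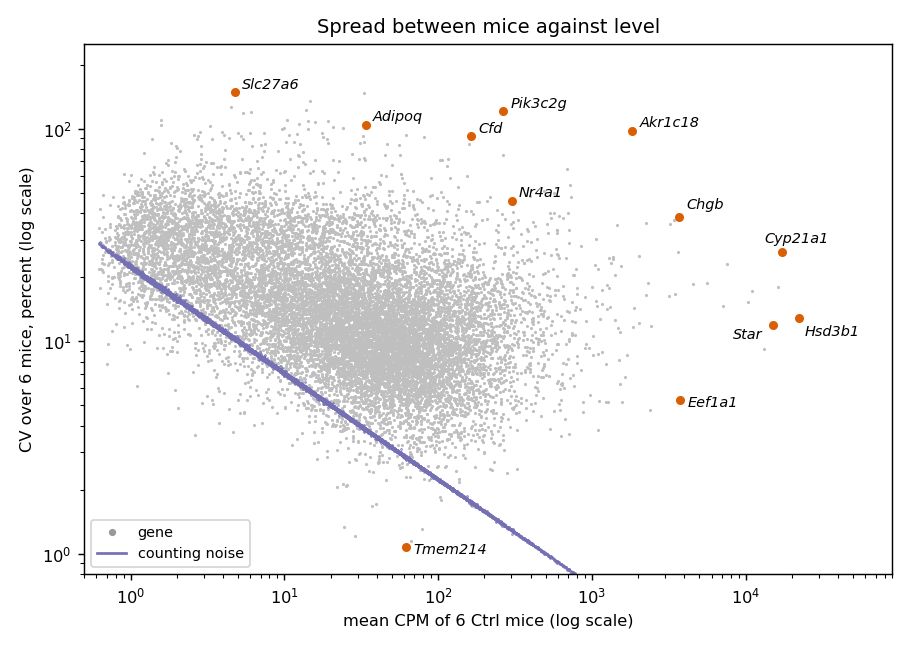
CV over 6 mice (percent, log scale) against mean CPM (log scale) for 13990 genes in grey, with the CV that counting alone would give in violet and named genes in orange. *Slc27a6* has the largest spread (148% at 4.75 CPM), *Akr1c18* and *Pik3c2g* lie far above genes of their level, and *Tmem214* lies below the counting line.

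The 15 genes with the largest spread had CVs between mice of 104% to 148%. *Slc27a6*, a fatty acid transporter, was first with 4.97, 1.21, 0.898, 18.8, 1.20 and 1.42 CPM, highest in Ctrl 4. *Cyp4f18*, a P450 of lipid oxidation, had 14.5, 2.03, 6.28, 54.6, 3.92 and 7.10 CPM. *Cidec*, from the adipocyte list, had 4.87, 16.7, 20.3, 59.1, 12.2 and 2.27 CPM. Beside these 3 the set held the 9 genes with Ctrl 1 and Ctrl 4 high (*Timp4*, *Cfap54*, *Pik3c2g*, *Gm15440*, *Plin4*, *Csf2rb*, *Acpp*, *Ssu2* and *Padi2*) and 1 gene without a symbol. *Hamp2* (a hepcidin) was high in Ctrl 5 only, with 3.36, 1.17, 2.97, 3.59, 20.96 and 4.61 CPM, and *Mybpc1* (a myosin-binding protein of muscle) in Ctrl 3 only, with 0.920, 0.952, 5.11, 0.803, 0.692 and 0.923 CPM. Of the 100 genes with the largest spread, 47 were highest in Ctrl 4 (15% of all kept genes were) and 38 lowest in Ctrl 3 (20.4% were). Ctrl 1 and Ctrl 4 were the 2 highest mice in 41 of them (5.26% of all kept genes), and 12 were annotated as other than protein coding. Of the 13884 kept genes with an annotation, 13189 were protein coding. A mean of 100 CPM was reached by 8 of the 100 and by 2128 of all 13990 kept genes.

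The 10 genes with the smallest spread among the 10091 at 10 CPM or more had CVs of 1.07% to 1.79%. They were *Tmem214*, *Orc3* (origin recognition), *Ppip5k2*, *Ppig*, *2900026A02Rik*, *Tex261*, *Pitpna*, *Sepsecs*, *Fam98a* and *Rhot1*. *Tex261*, the most abundant of them, had 173, 177, 171, 172, 173 and 174 CPM. Of the 25 lowest CVs 22 were at or below the counting noise, so their order is not resolved at this depth.

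Reference genes differed widely in steadiness. *Tbp*, the TATA-binding protein, had 27.7 to 32.6 CPM and a CV of 5.16%, the lowest of the 16. *Eef1a1* had a CV of 5.30%, *Sdha* 6.94%, *B2m* 7.28%, *Gapdh* 7.71%, *Hprt* 7.90% and *Ywhaz* 8.35%. *Gusb*, *Ppib*, *Ppia*, *Tfrc* and *Pgk1* lay between 10.9% and 13.2%, around or above the median of 11.0% for genes of 10 CPM or more. *Actb* had 1205, 1166, 888, 808, 1088 and 849.7 CPM (CV 17.9%), and *Rplp0* had 731, 607, 731, 524, 450.4 and 534 CPM (CV 20.1%). Copies of *Eef1a1*, *Gapdh*, *Ppia*, *Rplp0* and *Pgk1* are annotated elsewhere in the genome, so part of their reads may have been left out of the counts.

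A few genes were read in some mice and hardly at all in others. Below the count minimum, 40 genes still had 100 or more counts in at least 1 mouse, and 21 of them had 3 or fewer in another. *Cst8*, a cystatin, had the highest maximum, with 34.7, 7.96, 0.156, 80.6, 13.3 and 12.8 CPM in Ctrl 1 to Ctrl 6, and like *Akr1c18* it was high in Ctrl 1 and Ctrl 4 and lowest in Ctrl 3. *Gm8730*, a copy of *Rplp0*, had 0.552, 0.735, 0.273, 37.9, 34.3 and 40.7 CPM. The pseudogenes *Gm11942*, *Tdpx-ps1*, *Rps13-ps1*, *Rps15a-ps8* and *Pcna-ps2* and the polymorphic pseudogene *Cd1d2* made up the rest of the 8 highest. *Rps13-ps1* had 26.1, 22.5, 29.4, 0, 24.6 and 29.1 CPM and *Tdpx-ps1* had 31.2, 0.476, 0.312, 26.4, 12.6 and 0.284 CPM. These copies differ little from their parent genes, so a count depends on which reads map to 1 place only.

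Genes just inside and just outside the minimum had similar levels. The 109 kept genes with exactly 10 counts in their lowest mouse had a median of 0.913 CPM, and the 141 genes left out with 9 counts in theirs had a median of 0.813 CPM.

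As a whole the 6 libraries ranked genes alike. Spearman correlations of log2 CPM over the 13990 genes ran from 0.969 (Ctrl 1 with Ctrl 3) to 0.990 (Ctrl 2 with Ctrl 5 and Ctrl 5 with Ctrl 6), with a median of 0.984 over 15 pairs. These are correlations across genes, which are not independent. The pairs with a shared stem were not the closest. Ctrl 3 and Ctrl 4 ranked 9 of 15 (0.983) and Ctrl 1 and Ctrl 2 ranked 11 (0.982). The chi-square of their counts per degree of freedom was 42.5 and 45.8, within the range of 16.8 to 89.1 over all pairs, where sampling noise alone would give 1. Ctrl 1 and Ctrl 3, the pair with the lowest correlation, are the lowest and the highest mouse in the chromaffin share and stand at opposite ends in *Akr1c18*.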

How the data were processed

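The authors made the libraries from total RNA with a poly(A) kit, trimmed adapters, mapped with STAR to mm10 and used featureCounts 1.4.4 on reads with a single place in the genome. The annotation release and the strand setting are not given in the sources used here, so reads of overlapping genes may not be separated. The authors deposited raw counts of 39017 genes, which were used for every value. The deposited signal table holds the same counts divided by 1 factor per library and served only for gene symbols. 0 columns matched no sample.

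CPM is a count over the library's total of all listed genes. Spread was computed after TMM scaling (edgeR 4.0.16, R 4.3.3; factors 0.970 to 1.02), and fold ranges and gaps use the scaled values. Counting noise is the inverse of the mean count, subtracted from the squared CV. The step was checked on simulated counts. Positions, exon lengths, overlaps and copies (blastn 2.17.0, 95% identity over 10% of a transcript) came from GENCODE M21 on GRCm38, which holds 13884 of the 13990 genes. Python 3.11.15 and matplotlib 3.10.9 drew the figures.

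There is 1 group, so no test between groups was made and all values are descriptions. No other split of the mice was tested. The genes described, the gene lists and the rules were chosen with earlier results of these data known. Genes named are the 20 highest, all steroidogenic genes, up to 8 of each other list by level or spread, the 15 largest and 10 smallest spreads, the reference genes, and 8 genes below the minimum. Some genes that fall under this rule are not reported here. Others are said to be named after their values were seen. A mouse is 1 library, so SDs hold biological and technical spread together. Alternatives were the count minimum, scaling by library total or DESeq2 1.42.0 size factors, a minimum of 10 CPM, other spread measures, other denominators, and leaving out mice.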

Additional observations from a re-analysis of the deposited data

Results flagged for a closer look

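For each of 265 named genes and 20 list shares, the gap between the most extreme mouse and its neighbour was divided by the range of the 6 mice. In 23 of the 285 (8.07%) this ratio passed Dixon's 95% critical value for 6 values, where chance alone gives about 1 in 20. The share cannot be read against chance, since 7 of the 23 are among the 15 genes picked for their large spread between these mice. Without the picked genes it was 16 of 271 (5.90%), and genes of 1 list are not independent.

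A high Ctrl 3 was the most frequent case, in 8 genes. The ratio was 0.941 for *Mybpc1*, 0.839 for *Ifit1*, 0.803 for *Ifit3*, 0.772 for *Agtr1a*, 0.747 for *Isg15*, 0.647 for *Nr4a3*, 0.645 for *Fbln1* and 0.640 for *Hba-a1*. Ctrl 3 was low in *Thrb* (0.716). A high Ctrl 4 was found in 6 genes, with ratios of 0.773 for *Slc27a6*, 0.762 for *Cyp4f18*, 0.683 for *Cidec*, 0.649 for *Csf2rb*, 0.643 for *Cfd* and 0.634 for *Timp4*, and a low Ctrl 4 in *Ddx58* (0.675).

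Ctrl 5 was high in *Hamp2* (0.826), *Per2* (0.721) and *Cyr61* (0.673). Ctrl 6 was low in *Nr4a1* (0.647) and in the share of the immediate early genes (0.679), the only list share past the critical value. *Nr4a1* is the most abundant gene of that list (mean 301 CPM), so the flag of the list and that of the gene share its counts. The ratio of the list without *Nr4a1* was not computed. Ctrl 2 was high in *Mcm6* (0.761) and Ctrl 1 low in *Mc2r* (0.712). No chromaffin gene was among the 23. The causes were not tested.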

How the results depend on the processing

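No paired analysis was possible because there is 1 group. Of 65 alternatives 57 stayed within a set tolerance and 8 did not. The tolerance was 1.5-fold for counts of genes, 1 SD between mice for shares and 1 jackknife standard error for the median CV. The number of genes with a 2-fold range was 2771, 986 with a minimum of 10 CPM, and 1378 without the 2 mice whose label repeats a stem (Ctrl 1 and Ctrl 3), both of which leave fewer genes or mice. Leaving out 1 mouse gave 1984 to 2596. The median CV between mice was 11.7%, 10.3% with a minimum of 10 CPM, 9.84% without Ctrl 1 and Ctrl 3, and 15.7% as edgeR's tagwise value, and leaving out 1 mouse gave 10.8 to 12.4%. Per kilobase of exon, the steroidogenic share was 9.49% in place of 7.77% and the stromal share 0.364% in place of 0.469%, and without *Sparc*, an alternative added after the data were seen, the latter was 0.107%. Leaving out 1 mouse gave 7.62 to 7.97% for the steroidogenic, 1.11 to 1.34% for the chromaffin and 0.444 to 0.488% for the stromal share. Of the 100 genes with the largest spread, 74 to 100 were shared with every other measure, scaling or set of 5 mice. Also added afterwards, the number of genes with a 2-fold gap was 332 to 544 when 1 mouse was left out (332 without Ctrl 1), and 194 genes set apart by Ctrl 1 became 238 by library total and 197 by DESeq2's factors. With 6 mice a CV is itself imprecise, and below 1 CPM counting noise (24.02% at the median) exceeds the spread between mice.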

Other observations

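Some genes outside the lists were at full level in some mice and near the limit in others. They were chosen after their values were seen, and no explanation was tested. *Rps3a3*, a processed pseudogene, had 74.8, 1.64, 216, 178, 129 and 86.0 CPM, a step of 47.6-fold that set Ctrl 2 apart. *Slfn8* had 11.8, 12.1, 29.5, 0.911, 14.4 and 10.5 CPM and *Pttg1* (securin) had 31.2, 27.1, 28.3, 3.48, 28.7 and 24.1 CPM, and both were low in Ctrl 4 only. *Gpnmb*, a membrane glycoprotein, had 64.0, 24.5, 1.56, 35.8, 15.8 and 1.85 CPM. *Gdpd3* had 11.1, 0.909, 12.0, 0.803, 0.739 and 10.5 CPM, with Ctrl 2, Ctrl 4 and Ctrl 5 low. *E330017L17Rik*, a long noncoding RNA, had 45.7, 26.2, 3.36, 1.77, 3.00 and 44.1 CPM.

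*Adh7*, a retinol-active alcohol dehydrogenase, had 459.8, 1544, 285, 703, 704 and 432 CPM, with Ctrl 2 more than 2-fold above every other mouse. *Greb1l* was also high in Ctrl 2, with 42.9, 177, 18.6, 53.6, 51.1 and 26.1 CPM. *Fmo1*, a flavin monooxygenase, was low in Ctrl 4, with 579.9, 389, 469, 178, 407 and 555 CPM. *C3*, in place 17 by CPM, was lower in Ctrl 2 and Ctrl 4 than in the others, with 4690.4, 2015, 4027, 1712, 3775 and 4249 CPM. The antisense transcript *Gt(ROSA)26Sor* was highest in Ctrl 5, with 1.79, 2.81, 0.624, 2.04, 10.0 and 2.34 CPM.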
